A study of Mus musculus with 20 samples.

Results

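The 37 genes described here encode the transporters and enzymes that carry glucose to lactate, the regulators of that flux, the oxygen-sensing factors and a set of their hypoxia-induced targets. They were taken by name from a count table of 24062 mouse genes, in which all 37 were found and all 37 were among the 16589 genes with enough reads to test. The table holds 20 bulk RNA-seq libraries of nerve tumors from C57BL/6J mice. The neurofibromas (12 libraries) came from Nf1fl/fl; DhhCre mice. The paraspinal tumors (2 libraries of subgroup 1 and 2 of subgroup 2) and the genetically engineered mouse peripheral nerve sheath tumors, called GEM-PNST (4 libraries), came from Ink4a/Arf+/-; Nf1fl/fl; DhhCre mice. All groups therefore lack Nf1 in the Cre lineage, DhhCre being active in Schwann cell precursors, and host cells of the tumor keep it. The subgroups are named sub-clusters in the labels, so they may have been drawn from these same values. No drug was given, and no age or sex is used here.

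Glycolysis splits glucose to pyruvate in the cytosol, and lactate dehydrogenase turns pyruvate into lactate, which monocarboxylate transporters move across the membrane. When oxygen falls, the prolyl hydroxylases encoded by Egln genes lose activity, the HIF alpha subunits encoded by Hif1a and Epas1 are no longer degraded, and HIF raises transcription of many glycolytic genes. Neurons and muscle use their own enzyme isoforms, such as Eno2 in neurons, Aldoc in brain and Pfkm in muscle. In a piece of nerve tumor, both the cell mixture and the oxygen response may therefore bear on such levels. Their parts were not tested here. In bulk tissue, fewer cells of a type and less RNA per cell cannot be told apart.

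HIF binds short sites whose commonest core is ACGTG, and this core was searched on both strands in the 250 bases before each gene's RefSeq start site (GRCm38.p6). It occurred in 20 of the 34 members with a window (58.8%), in at least 1 of a gene's windows, against 18.5% of 27025 gene symbols. The members were listed as glycolysis and hypoxia response genes, so a higher share is partly built into the list. The 27025 are all symbols with a window, not only the genes tested here. A match on 1 strand at a CACGTG overlaps a match on the other, and both were counted as matches of the same gene. The 4 promoters below belong to the members with the largest GEM-PNST over paraspinal changes, Car9, Ankrd37, Slc16a3 and Egln3, and are shown 5′ to 3′ on the gene's strand with the core, or its reverse complement, in capitals.
Car9 (chr4:43506776-43507025, + strand): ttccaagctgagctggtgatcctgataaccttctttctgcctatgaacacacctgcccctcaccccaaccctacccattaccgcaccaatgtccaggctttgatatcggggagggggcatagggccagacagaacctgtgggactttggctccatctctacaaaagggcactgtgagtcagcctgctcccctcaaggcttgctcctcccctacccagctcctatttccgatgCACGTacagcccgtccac
Ankrd37 (chr8:45999851-46000100, - strand): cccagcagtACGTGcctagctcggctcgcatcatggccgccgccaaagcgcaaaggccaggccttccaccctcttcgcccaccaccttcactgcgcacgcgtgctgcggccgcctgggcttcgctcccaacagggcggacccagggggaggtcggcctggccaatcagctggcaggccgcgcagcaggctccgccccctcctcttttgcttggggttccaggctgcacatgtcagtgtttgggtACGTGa
Slc16a3 (chr11:120948817-120949066, + strand): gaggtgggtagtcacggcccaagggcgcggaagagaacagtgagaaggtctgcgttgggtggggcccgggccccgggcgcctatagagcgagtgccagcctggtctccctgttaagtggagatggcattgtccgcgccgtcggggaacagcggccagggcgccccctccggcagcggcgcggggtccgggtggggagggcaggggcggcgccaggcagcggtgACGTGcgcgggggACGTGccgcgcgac
Egln3 (chr12:54203875-54204124, - strand): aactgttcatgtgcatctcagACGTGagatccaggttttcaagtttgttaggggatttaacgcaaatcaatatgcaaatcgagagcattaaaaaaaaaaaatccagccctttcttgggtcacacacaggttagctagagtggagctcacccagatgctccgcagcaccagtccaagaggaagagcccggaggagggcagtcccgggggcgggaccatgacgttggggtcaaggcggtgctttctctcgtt
The core began 18 bases before the start site in Car9, and Slc16a3 held it at 27 and 14 bases before. Eno2, Tpi1, Gapdh and Adm had no match in their windows. A match is a run of letters and not a measured binding site.

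Totals ran from 9900759 to 17594164 counts in neurofibromas, from 18474071 to 24314222 in paraspinal tumors and from 16282605 to 22218382 in GEM-PNST. Values below are read counts relative to the TMM-scaled library size (CPM), which compare 1 gene between libraries but not 1 gene with another. Nf1 itself, counted over the whole gene so that a deleted exon is not seen, stood at 217 to 275 CPM in neurofibromas, 35.8 to 89.6 in paraspinal tumors and 22.4 to 30.6 in GEM-PNST. Cdkn2a, the Ink4a/Arf gene, stood at 0.086 to 1.43, 7.91 to 36.2 and 0.54 to 9.85 CPM. The neurofibromas were sequenced in runs 1 and 2 and the other tumors in run 3, so for every difference from neurofibroma the stage, genotype and run cannot be told apart. The label codes of 3 pairs of libraries differ only by a letter or its case: neurofibromas 8 and 9, the pair of paraspinal subgroup 2, and GEM-PNST 2 with paraspinal subgroup 1 library 1. Whether the libraries of a pair come from 1 animal is not given in the sources used here. Paraspinal tumors and GEM-PNST share run and genotype. The Schwann lineage list summed to 1925 to 3071 CPM in neurofibromas and 2476 to 4086 in paraspinal tumors, but to 6.8, 4.5, 1195 and 28.7 in GEM-PNST libraries 1 to 4. Salivary gland genes summed to 40716 CPM in GEM-PNST library 3 and to at most 84.2 in any other library. Counts of all members called without that library are given for both comparisons of GEM-PNST with another stage. Other counts, the ratios and the spread below include it unless said otherwise.

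Across all genes, change went with gene length. Spearman's rho across 15770 genes between the log2 fold change and the genomic span of the gene was -0.28 for GEM-PNST against paraspinal, -0.35 for GEM-PNST against neurofibroma and -0.33 for paraspinal against neurofibroma, as a description across genes that are not independent. The 5257 genes of shortest span had a median log2 fold change of 0.44, 0.97 and 0.64 in these comparisons, and the 5257 of longest span -0.40, -1.19 and -0.62. The 12 members among the shortest had medians of 1.03, 2.36 and 0.83, and the 9 among the longest -0.38, -0.08 and 0.29. The part of gene length in the members' changes was not tested.

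Against paraspinal tumors, GEM-PNST had higher Car9, and no other member passed the test in either direction. The count was 1 of 37 members (2.70%) against 10.9% of all genes tested, of which 3.07% were higher and 7.82% lower. All 4 GEM-PNST lay on 1 side of all 4 paraspinal tumors for 4 members, Car9 above and Slc16a1, Pfkm and Eno2 below, beside 27.6% of all genes (11.2% above, 16.4% below). The members' log2 fold changes were above 0 for 25 of 37, with a median of 0.36 beside 0.04 over all genes. That median depended on the scaling, since library totals alone shifted all genes by -0.50 and put the members' median at -0.02 with 17 of 37 above 0. Under the same scaling, the share of called genes that were higher moved from 28.2% to 7.20%. Unadjusted p was under 0.05 for 13 members and 5622 genes. GEM-PNST library 3 weighed on these counts: without it 7 members were higher and 0 lower, among 2497 genes called. Without GEM-PNST library 2, 1 member was higher and 3 lower among 1624 genes, and without paraspinal subgroup 1 library 1, whose code resembles it, 0 and 0 among 559. Car9 itself lost its call when any 1 of the 4 paraspinal libraries was left out.

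**Figure D1:**
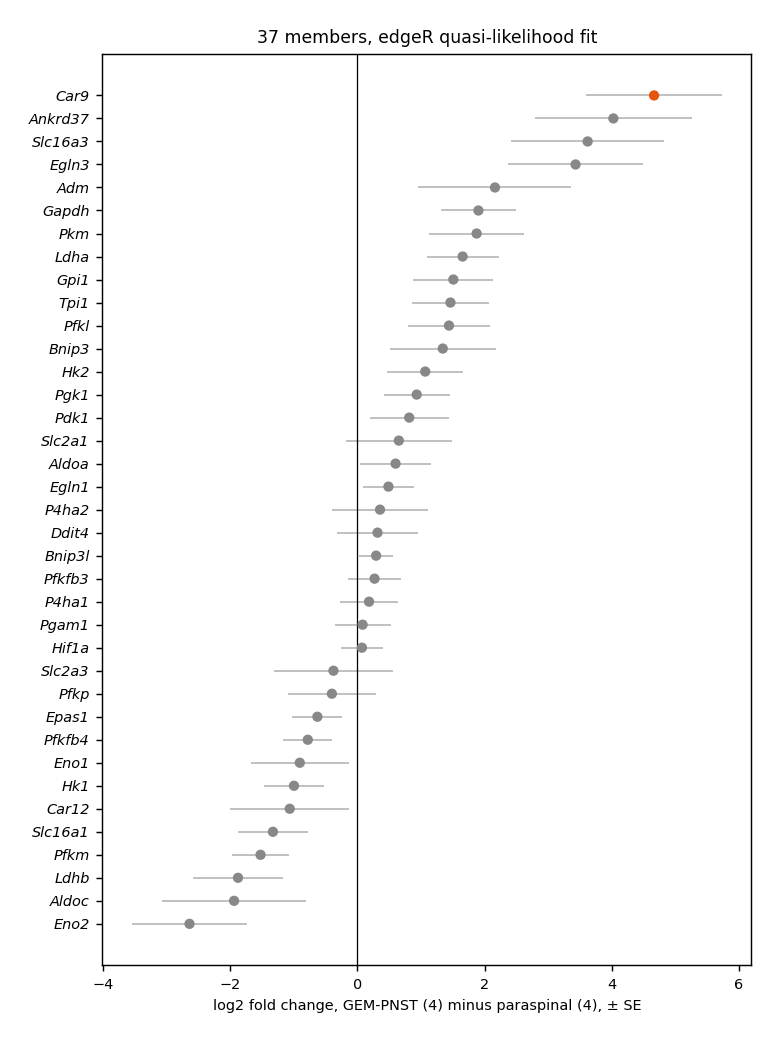
Log2 fold change ± SE of the 37 members, GEM-PNST (4 libraries) minus paraspinal (4 libraries), ordered by size, from edgeR's quasi-likelihood fit. Car9 (orange, 4.67 ± 1.06) passed an adjusted p of 0.05 and the grey members did not. Estimates run from -2.64 for Eno2 upward.

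Against neurofibromas, members moved in both directions. GEM-PNST had 15 members higher and 8 lower, 23 of 37 (62.2%) against 73.3% of all genes tested (35.4% higher, 37.9% lower), with a median member log2 fold change of 0.61 beside -0.12 over all genes. Without GEM-PNST library 3, 17 were higher and 6 lower among 12055 genes called. Paraspinal tumors had 13 higher and 9 lower, 22 of 37 (59.5%) against 59.5% of genes (30.3% higher, 29.3% lower), with medians of 0.29 and -0.01. Neither share stood above its background. Groups did not overlap for 8 members in the first comparison (46.5% of all genes) and 13 in the second (36.5%). These comparisons share the neurofibroma libraries, so their values are given side by side and are not counted as support for each other. Within the neurofibromas, run 2 against run 1 called 0 of 37 members and 0 percent of genes by edgeR at the adjusted threshold. The log2 fold changes between runs were nevertheless above 0 for 30 of 37 members, with a median of 0.37. Over all genes 9344 of 16589 were above 0, with a median of 0.05. All 15 glycolytic enzymes were above 0, with a median of 0.44. The runs did not overlap for 1 member, Eno1, higher in run 2 (adjusted p = 0.209), beside 0.983% of genes (0.319% higher, 0.663% lower). The member with the largest change between runs was Car12, at -1.36 ± 0.74 (adjusted p = 0.446).

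Markers of other cells and of dividing cells were also compared between the stages. The 11 macrophage genes found summed to 149 to 2157 CPM in neurofibromas, 635 to 2501 in paraspinal tumors and 2142 to 7422 in GEM-PNST. Of the 11, 8 were higher in GEM-PNST than in neurofibromas (72.7%), beside 35.4% of all genes. In paraspinal tumors 4 of 11 were higher (36.4%), near the 30.3% of all genes. Between GEM-PNST and paraspinal tumors 0 of 11 were called by edgeR, with all 11 log2 fold changes above 0, from 0.86 to 2.77. The 12 cell cycle genes summed to 71.4 to 433, 92.8 to 403 and 516 to 1510 CPM. Against neurofibromas, 10 of 12 were higher in GEM-PNST (83.3%, beside 35.4% of all genes). In paraspinal tumors 4 of 12 were higher (33.3%), near the 30.3% of all genes. Between GEM-PNST and paraspinal tumors 3 of 12 were higher in GEM-PNST (25%), beside 3.07% of all genes. Skeletal muscle genes, 16 in number, summed to at most 3801 CPM in neurofibromas, 27.1 to 2118 in paraspinal tumors and 157 to 1705 in GEM-PNST. None of these genes was at 0 throughout. The part of these cells in the members' changes was not tested.

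**Figure D2:**
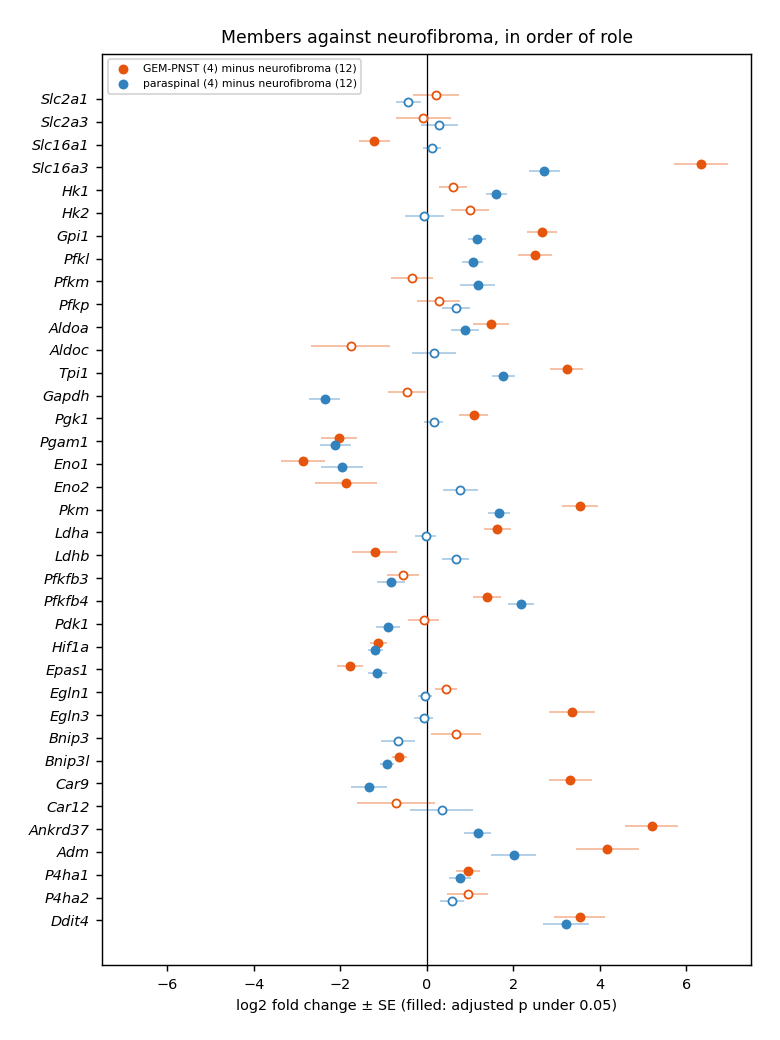
Log2 fold change ± SE of each member against the 12 neurofibromas, for GEM-PNST (orange, 4 libraries) and paraspinal tumors (blue, 4 libraries), listed by role. Filled points passed an adjusted p of 0.05. Slc16a3, Gpi1, Tpi1 and Pkm lie right of 0 in both, and Pgam1, Hif1a and Epas1 lie left of 0 in both.

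Among the transporters, Slc16a3, which exports lactate, was low in neurofibromas and high in 2 GEM-PNST. It stood at 0.60 to 2.42 CPM (median 1.62) in neurofibromas. Paraspinal tumors gave 9.04 and 3.45 CPM in subgroup 1 and 19.9 and 7.79 in subgroup 2. GEM-PNST libraries 1 to 4 gave 174, 302, 8.24 and 10.1 CPM, so libraries 3 and 4 lay inside the paraspinal range. The log2 fold change was 6.34 ± 0.62 (SE, adjusted p = 1.35e-07) for GEM-PNST against neurofibroma and 2.72 ± 0.36 (adjusted p = 5.2e-06) for paraspinal against neurofibroma, with no overlap in either. Against paraspinal it was 3.62 ± 1.20 (adjusted p = 0.0788).

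Slc16a1, the monocarboxylate transporter of most tissues, went the other way. Its range was 36.8 to 86.6 CPM (median 49.8) in neurofibromas, with 54.6 and 46.8 in subgroup 1, 51.3 and 87.2 in subgroup 2, and 7.78, 46.3, 29.7 and 11.5 in GEM-PNST. All 4 GEM-PNST lay below all 4 paraspinal libraries, with GEM-PNST library 2 just under the lowest. The difference from paraspinal was -1.33 ± 0.55 (adjusted p = 0.131), and that from neurofibroma was -1.21 ± 0.37 (adjusted p = 0.00716). Slc2a1 and Slc2a3, the glucose transporters GLUT1 and GLUT3, were called in no comparison. Slc2a1 was 546 CPM in GEM-PNST library 2 but 20.6 to 99.1 in the other GEM-PNST and 71.3 to 255 in neurofibromas.

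Of the 15 glycolytic enzymes, 6 rose and 3 fell in GEM-PNST against neurofibroma, 9 of 15 (60%) beside 73.3% of all genes. In paraspinal tumors 7 rose and 3 fell, 10 of 15 (66.7%) beside 59.5%, and 0 of 15 passed between GEM-PNST and paraspinal, beside 10.9%. Pkm, pyruvate kinase, was highest in GEM-PNST libraries 1, 2 and 4. Neurofibromas ranged from 104 to 400.4 CPM (median 233), subgroup 1 gave 774 and 765, subgroup 2 gave 1007 and 770.4, and GEM-PNST gave 2949, 7158, 513 and 1550. Every library of the other stages lay above every neurofibroma, while GEM-PNST library 3 fell below the paraspinal tumors. The log2 fold change was 3.54 ± 0.42 (adjusted p = 1.14e-06) for GEM-PNST and 1.67 ± 0.25 (adjusted p = 1.95e-05) for paraspinal against neurofibroma, and 1.88 ± 0.75 (adjusted p = 0.119) between them.

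Tpi1, triose phosphate isomerase, followed the same order. It ran from 37.8 to 164 CPM (median 98.3) in neurofibromas, with 280.4 and 275 in subgroup 1, 410.1 and 412 in subgroup 2, and 1364, 1723, 259 and 454 in GEM-PNST. The increase over neurofibroma was 3.23 ± 0.38 (adjusted p = 9.17e-07) in GEM-PNST and 1.77 ± 0.27 (adjusted p = 2.05e-05) in paraspinal tumors, with no overlap in either. Gpi1, the second enzyme of the pathway, stood at 117 to 333 CPM (median 194) in neurofibromas, 441 and 366 in subgroup 1, 533 and 478 in subgroup 2, and 2668, 1605, 399.7 and 502 in GEM-PNST. Its increases were 2.66 ± 0.35 (adjusted p = 3.74e-06) and 1.15 ± 0.21 (adjusted p = 0.000125). Against paraspinal tumors Tpi1 and Gpi1 were 1.46 ± 0.61 and 1.51 ± 0.63 higher on the log2 scale with adjusted p of 0.129 and 0.13, and libraries 3 and 4 stayed near the paraspinal level.

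The phosphofructokinase genes, whose enzyme commits sugar to glycolysis, split. Pfkl, the liver form, stood at 13.7 to 43.4 CPM (median 26.2) in neurofibromas, 57.9 and 61.9 in subgroup 1, 65.3 and 53.2 in subgroup 2, and 208, 343, 37.2 and 58.8 in GEM-PNST. It was 2.51 ± 0.40 (adjusted p = 2.86e-05) higher in GEM-PNST and 1.07 ± 0.24 (adjusted p = 0.00104) higher in paraspinal tumors than in neurofibromas, on the log2 scale. Pfkm, the muscle form, ran the other way between the 2 later stages. It gave 16.7 to 115 CPM (median 44.5) in neurofibromas, 170.5 and 154 in subgroup 1, 113 and 103 in subgroup 2, and 16.7, 67.7, 65.6 and 37.9 in GEM-PNST. All GEM-PNST values were under all paraspinal values, with a log2 difference of -1.52 ± 0.44 and an adjusted p of 0.0589. Paraspinal tumors were higher than neurofibromas by 1.17 ± 0.40 (adjusted p = 0.019), which no longer passed when either subgroup 1 library was left out (adjusted p = 0.0683 and 0.0512). Pfkp, the platelet form, was 408 CPM in GEM-PNST library 1 and 34.7 to 91.5 in the others.

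Hexokinases trap glucose by phosphorylation. Hk1 stood at 32.0 to 120.4 CPM (median 70.2) in neurofibromas, 277 and 247 in subgroup 1, 160.7 and 161 in subgroup 2, and 70.6, 216, 78.6 and 58.1 in GEM-PNST. Paraspinal tumors exceeded neurofibromas without overlap (log2 fold change 1.60 ± 0.24, adjusted p = 2.16e-05), and GEM-PNST differed from paraspinal by -0.998 ± 0.47 (adjusted p = 0.169). Hk2, the form that HIF induces, was called in no comparison, at 22.8 to 107 CPM in GEM-PNST and 8.09 to 39.4 in paraspinal tumors.

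Gapdh, often used as a reference gene, differed between the stages. Neurofibromas gave 177 to 802 CPM (median 440.3), subgroup 1 gave 81.6 and 66.2, subgroup 2 gave 98.4 and 121, and GEM-PNST gave 469, 633, 84.2 and 189. All 4 paraspinal libraries lay below all neurofibromas, a log2 difference of -2.37 ± 0.35 (adjusted p = 2.02e-05). GEM-PNST libraries 1, 2 and 4 lay inside the neurofibroma range, and library 3 lay among the paraspinal tumors. The difference from paraspinal was 1.90 ± 0.60 (adjusted p = 0.07), and that from neurofibroma was -0.46 ± 0.43 (adjusted p = 0.348). Pgam1, phosphoglycerate mutase, was lower than neurofibroma without overlap in GEM-PNST (-2.03 ± 0.41, adjusted p = 0.000309) and in paraspinal tumors (-2.11 ± 0.36, adjusted p = 8.53e-05). Aldoa, the main aldolase, was higher than neurofibroma in GEM-PNST (1.49 ± 0.41, adjusted p = 0.0037) and in paraspinal tumors (0.89 ± 0.33, adjusted p = 0.0279), the second call being lost without subgroup 1 library 1 (adjusted p = 0.0514). Pgk1, phosphoglycerate kinase, was higher in GEM-PNST (1.09 ± 0.33, adjusted p = 0.00774), a call lost without library 2 (adjusted p = 0.0642). Aldoc, the brain aldolase, passed in no comparison, at 2.02 to 65.3 CPM in GEM-PNST and 53.4 to 85.7 in paraspinal tumors.

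Some enzymes share sequence with copies elsewhere. Over all 50-base stretches of a member's transcripts in GENCODE M21, the share also found in another gene was 58.4% for Gapdh (222 genes, 213 of them pseudogenes), 68.0% for Pgk1, 49.5% for Eno1, 46.3% for Bnip3, 41.5% for Pgam1, 24.4% for Bnip3l, 21.0% for Ldhb, 19.0% for Gpi1, 18.4% for Pkm, 10.4% for Ldha, 8.46% for Aldoa and 6.83% for Tpi1. It was 0 for Slc16a3, Hk1, Pfkm, Hif1a, Epas1, Egln3 and Ankrd37. Values of the first set are uncertain where the counting could split reads between copies, and the part of that sharing in their changes was not tested. Eno1, the enolase of most tissues, had few counts: it stood at 0.10 to 2.92 CPM in every library, with 2 to 34 counts. It was called lower than neurofibroma in GEM-PNST (-2.87 ± 0.51, adjusted p = 8.94e-05) and in paraspinal tumors (-1.96 ± 0.49, adjusted p = 0.00232). The cause of its low counts was not tested.

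Eno2, the neuronal enolase, was lowest in GEM-PNST. It ran from 24.7 to 333 CPM (median 137) in neurofibromas, 279 and 304 in subgroup 1, 220.2 and 196 in subgroup 2, and 2.10, 104, 32.2 and 21.6 in GEM-PNST. All GEM-PNST values lay under all paraspinal values. The difference from paraspinal was -2.64 ± 0.91 (adjusted p = 0.0852) and that from neurofibroma was -1.86 ± 0.72 (adjusted p = 0.0279). The list of 20 sensory neuron genes summed to 486, 86.4, 228 and 68.6 CPM in GEM-PNST libraries 1 to 4. Its sums were 5588 to 8594 CPM in paraspinal tumors and 39.7 to 15752 in neurofibromas. Within GEM-PNST it did not follow Eno2, as library 1 held the largest sum and the least Eno2. Of the 20 genes, 17 were called lower in GEM-PNST than in paraspinal tumors (85%), beside 7.82% of all genes. Among the 20, 1 was at 0 in all 4 GEM-PNST. The Eno2 call against neurofibroma was lost without GEM-PNST library 3 (adjusted p = 0.0668) or 4 (adjusted p = 0.088), and against either neurofibroma run alone. The neurons' part in the Eno2 difference was not tested.

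The lactate dehydrogenase subunits moved apart. Ldha, which favours lactate formation, stood at 231 to 535 CPM (median 334) in neurofibromas, 272 and 226 in subgroup 1, 495 and 329 in subgroup 2, and 1894, 1318, 368 and 584 in GEM-PNST. Ldhb ran from 73.2 to 252 CPM (median 144) in neurofibromas, 143 and 293 in subgroup 1, 248 and 294 in subgroup 2, and 10.6, 150.2, 73.1 and 32.2 in GEM-PNST. Against neurofibroma, Ldha was higher by 1.63 ± 0.31 (adjusted p = 0.000178) and Ldhb lower by -1.21 ± 0.52 (adjusted p = 0.0441). The Ldhb call was lost without GEM-PNST library 1, 3 or 4 (adjusted p = 0.117, 0.0713 and 0.148), without neurofibroma library 8 (adjusted p = 0.055), and against either neurofibroma run alone. Against paraspinal tumors the differences were 1.66 ± 0.57 (adjusted p = 0.0851) and -1.88 ± 0.71 (adjusted p = 0.107).

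Of the flux regulators, Pfkfb4, which makes the activator of phosphofructokinase, rose against neurofibroma in both later stages. It was 5.14 to 23.2 CPM in neurofibromas, 35.8 to 80.8 in paraspinal tumors and 19.7 to 51.9 in GEM-PNST, for log2 fold changes of 2.18 ± 0.30 (adjusted p = 9.54e-06) and 1.40 ± 0.32 (adjusted p = 0.00101). Pfkfb3 and Pdk1, the kinase that closes pyruvate dehydrogenase, were lower in paraspinal tumors than in neurofibromas, by -0.83 ± 0.32 (adjusted p = 0.0325) and -0.89 ± 0.28 (adjusted p = 0.0105). Both calls were lost without paraspinal subgroup 2 library 1 (adjusted p = 0.16 and 0.085) or library 2 (adjusted p = 0.106 and 0.0836).

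Both HIF alpha genes were lower in the later stages than in neurofibromas. They are among the 5257 genes of longest span. The median of those genes against neurofibroma was -0.62 in paraspinal tumors and -1.19 in GEM-PNST. The part of gene length in the values below was not tested. Hif1a stood at 74.1 to 127 CPM in neurofibromas, 29.9 to 59.9 in paraspinal tumors and 32.7 to 68.5 in GEM-PNST, and both later stages lay wholly below neurofibromas (-1.20 ± 0.17, adjusted p = 1.54e-05, and -1.12 ± 0.19, adjusted p = 6.22e-05). Epas1, encoding HIF2 alpha, was 149 to 389.5, 71.2 to 114 and 23.4 to 84.2 CPM (-1.14 ± 0.22, adjusted p = 0.000289, and -1.77 ± 0.30, adjusted p = 6.08e-05). Egln1, the main HIF hydroxylase, passed in no comparison. HIF is controlled mainly at the protein level, which these libraries do not measure.

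Egln3, a HIF hydroxylase that HIF itself induces, was flat in neurofibromas and paraspinal tumors and high in 3 GEM-PNST. Neurofibromas ranged from 3.76 to 9.80 CPM (median 6.04), subgroup 1 gave 6.48 and 6.14, subgroup 2 gave 5.48 and 5.46, and GEM-PNST gave 22.4, 208, 4.61 and 19.5. Library 3 was the only GEM-PNST inside the range of the other stages. The log2 fold change was 3.36 ± 0.54 (adjusted p = 3.22e-05) against neurofibroma and 3.43 ± 1.06 (adjusted p = 0.0676) against paraspinal.

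Car9, carbonic anhydrase IX, an enzyme of the cell surface that is widely read as a hypoxia marker, was the member that passed between GEM-PNST and paraspinal. It gave 0.71 to 2.56 CPM (median 1.21) in neurofibromas, 0.33 and 0.22 in subgroup 1 (8 and 5 counts), 0.63 and 0.87 in subgroup 2 (13 and 24 counts), and 11.4, 36.6, 2.33 and 2.58 in GEM-PNST (168, 679, 47 and 32 counts). Every GEM-PNST was above every paraspinal library, but library 3 lay inside the neurofibroma range and library 4 just above its top. The log2 fold change was 4.67 ± 1.06 (adjusted p = 0.0322), a 25.4-fold increase. Without 1 paraspinal library the estimates were 4.46 to 4.97 and the adjusted p was 0.0620 to 0.102. Paraspinal tumors had less Car9 than neurofibromas (-1.34 ± 0.42, adjusted p = 0.0111), and GEM-PNST more (3.32 ± 0.50, adjusted p = 1.8e-05).

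Ankrd37, an ankyrin repeat gene induced by HIF, stood at 0.60 to 1.80 CPM (median 1.00) in neurofibromas, 1.73 and 1.37 in subgroup 1, 4.08 and 3.21 in subgroup 2, and 59.8, 104, 1.34 and 4.60 in GEM-PNST. Libraries 1 and 2 stood far above all others, and library 3 lay below every paraspinal tumor. The change was 5.20 ± 0.62 (adjusted p = 1.17e-06) against neurofibroma and 4.03 ± 1.24 (adjusted p = 0.0672) against paraspinal. Ddit4, a brake on mTOR signaling induced by hypoxia and other stress, was high in both later stages. It ran from 4.54 to 54.1 CPM (median 7.80) in neurofibromas, 119 and 82.8 in subgroup 1, 88.0 and 219.7 in subgroup 2, and 361, 75.4, 47.9 and 150.5 in GEM-PNST. Its change was 3.21 ± 0.53 (adjusted p = 5.32e-05) in paraspinal tumors and 3.53 ± 0.59 (adjusted p = 4.75e-05) in GEM-PNST against neurofibroma, and GEM-PNST did not pass against paraspinal (0.32 ± 0.63, adjusted p = 0.758).

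Adm, the vasodilator adrenomedullin, was also higher than neurofibroma in both later stages (4.18 ± 0.73 and 2.01 ± 0.52, adjusted p = 7.7e-05 and 0.00302), and GEM-PNST library 2 alone held 144 CPM against 1.69 to 14.5 in the other 3. P4ha1, a collagen prolyl hydroxylase subunit, rose in both (0.95 ± 0.28 and 0.76 ± 0.26, adjusted p = 0.00544 and 0.0163), the first call being lost without GEM-PNST library 2 (adjusted p = 0.104) and the second without paraspinal subgroup 2 library 1 (adjusted p = 0.0624). Bnip3l, a mitophagy receptor, fell in both (-0.63 ± 0.18 and -0.93 ± 0.16, adjusted p = 0.0052 and 0.000104). Bnip3, P4ha2 and Car12 were called in no comparison. Car12, a carbonic anhydrase like Car9, ran from 0.40 to 24.8 CPM (median 3.28) in neurofibromas, with 6.69 and 2.17 in subgroup 1, 7.33 and 11 in subgroup 2, and 0.14, 7.34, 2.83 and 2.66 in GEM-PNST, so all groups overlapped.

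**Figure D3:**
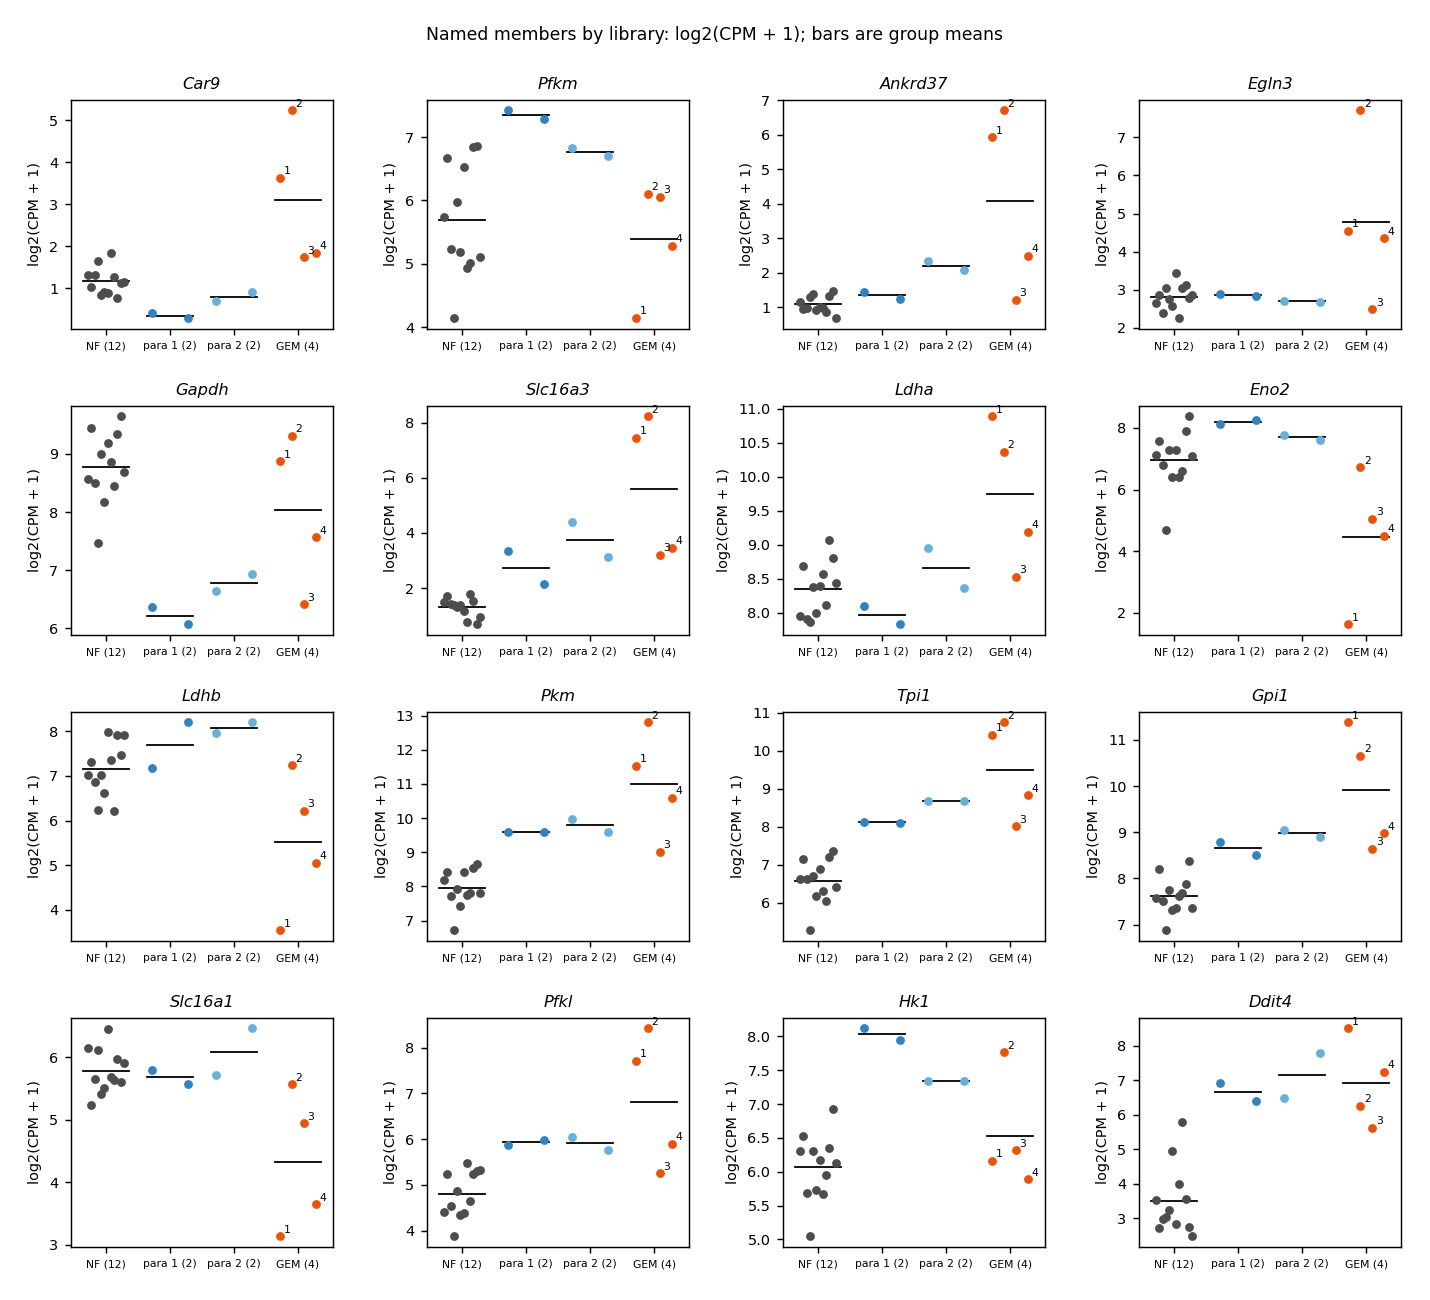
Levels of 16 members by library as log2(CPM + 1), in 12 neurofibromas (NF), paraspinal subgroup 1 (para 1, 2 libraries), paraspinal subgroup 2 (para 2, 2 libraries) and 4 GEM-PNST, whose points carry the library number. Bars are group means. GEM-PNST libraries 1 and 2 hold the highest values of Car9, Ankrd37, Slc16a3, Gpi1, Tpi1, Pfkl and Ldha.

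In these genes GEM-PNST differed more among themselves than the other groups did. The median SD over members of log2(CPM + 0.5) was 1.30 in GEM-PNST, 0.40 in paraspinal tumors and 0.55 in neurofibromas, beside 0.61, 0.42 and 0.41 over all genes tested. Library 1 lay above all 4 paraspinal tumors for 21 of 37 members, library 2 for 22, library 3 for 2 and library 4 for 10, while the shares over all genes were 35.2%, 35.0%, 31.6% and 31.6%. Libraries 1 and 2 alone exceeded every paraspinal tumor for 9 members (24.3%) and for 3.57% of all genes. Library 2 held the highest GEM-PNST value for 24 members (64.9%), beside 26.8% of all genes, and library 1 for 10 (27.0%), beside 34.7%. These libraries also differed in other cell markers: the 14 endothelial genes summed to 110, 133, 556 and 871 CPM in libraries 1 to 4, the 11 macrophage genes found to 6833, 2142, 5349 and 7422, and the 12 cell cycle genes to 1510, 738, 516 and 961. Salivary gland genes summed to 1.42, 6.91, 40716 and 4.20 CPM in libraries 1 to 4, and Schwann lineage genes to 6.83, 4.53, 1195 and 28.7. None of the endothelial, macrophage or cell cycle genes was at 0 throughout GEM-PNST. The part of these cells in the members' spread was not tested.

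Ratios of related genes within a library do not depend on the scaling between libraries. They were taken per summed exon length of each gene, after adding 2 to each count. Of 11 ratios compared between 4 GEM-PNST and 4 paraspinal tumors, 4 did not overlap, each with p = 0.0286 in a two-sided exact permutation test, the smallest this design allows, and an adjusted p of 0.0786 over the 11, so none passed. On the log2 scale, Ldha/Ldhb was 6.38, 2.06, 1.25 and 3.10 in GEM-PNST and -1.45 to -0.08 in paraspinal tumors, a difference of 3.85. Hk2/Hk1 was -0.83 to 0.01 against -4.40 to -1.51, a difference of 2.19. Car9/Car12 differed by 5.30 and Aldoc/Aldoa by -3.93. Slc16a3/Slc16a1 differed by 4.07 with overlap (p = 0.0571, exact permutation test, adjusted p = 0.126). For the remaining 6, Eno2/Eno1, Egln3/Egln1, Pfkfb3/Pfkfb4, Epas1/Hif1a, Slc2a1/Slc2a3 and Pfkp/Pfkm, the groups overlapped and the exact p ran from 0.0857 to 1.

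**Figure D4:**
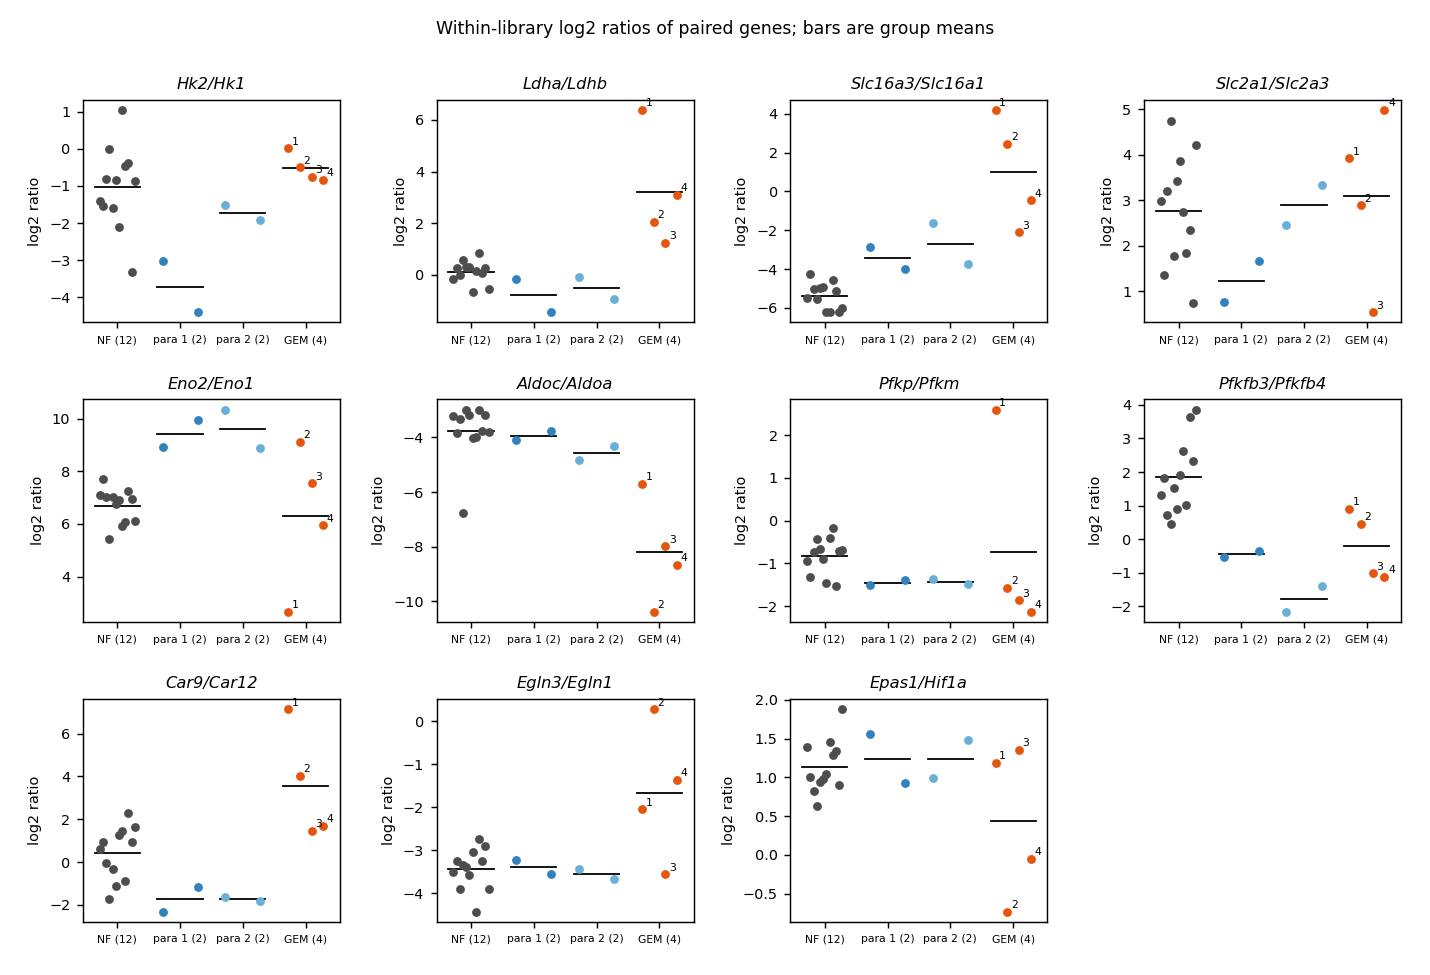
Within-library log2 ratios of 11 gene pairs by library in neurofibromas (NF, 12), paraspinal subgroups 1 and 2 (2 each) and GEM-PNST (4, numbered), with bars at group means. The ratios Hk2/Hk1, Ldha/Ldhb and Car9/Car12 lie higher, and Aldoc/Aldoa lower, in all 4 GEM-PNST than in all 4 paraspinal tumors.

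The 12 neurofibromas differed among themselves in sensory neuron content, and many members followed it. The sum of the 20 sensory neuron genes ran from 39.7 CPM in library 4 to 15752 in library 11. By Spearman's rho with a permutation test (100000 resamples, adjusted over 16589 genes), 15 members were positive and 3 negative, against 18.5% and 14.0% of all genes tested. Of the positive members, 12 are glycolytic enzymes, and the others are Ldha, Ldhb and Bnip3. Tpi1 gave r = 0.895 and rho = 0.993 (adjusted p = 0.00033 for r and 0.00054 for rho), and r = 0.948 without libraries 4 and 11. Eno2 gave r = 0.940 and rho = 0.965, and r = 0.957 without those 2. Pfkm gave r = 0.791 and rho = 0.951, and r = 0.951 without them. Within run 1 and run 2, r was 0.947 and 0.978 for Tpi1, 0.981 and 0.978 for Eno2, and 0.879 and 0.946 for Pfkm. These 3 had the highest rho of the members over all 12 libraries, so a high r within the runs is partly built in. Other positive members were lower, such as Ldha at 0.541 in run 1 and Ldhb at 0.486 in run 2.

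Skeletal muscle RNA ran partly alongside the neuron sum. The 16 muscle genes summed to 2420, 3704, 3801 and 1068 CPM in neurofibroma libraries 2, 7, 10 and 11 and to at most 308 in the other 8. These 4 libraries held the highest Pfkm, at 101, 91.1, 114 and 115 CPM against at most 61.9 in the others, and the highest Aldoa, at 965, 851, 1132 and 1028 CPM against at most 602. They lay above all 8 others for 6 of the 37 members, all of them among the 15 positive ones. The share of all genes that did so was not counted. In the 8 libraries without much muscle RNA, a comparison chosen after seeing the data and given as a description, 14 of the 15 positive members had r above 0.5, and 10 did once library 4 was also left out. These 15 were picked by their relation over all 12 libraries. A high r in a part of those libraries is thus partly built in and is no separate support. Over those 8 and then 7 libraries, r was 0.863 and 0.936 for Pfkm, 0.898 and 0.508 for Aldoa, 0.934 and 0.865 for Tpi1, and 0.971 and 0.923 for Eno2, while Pgam1 went from 0.939 to 0.441 and Ldha was at 0.426 and 0.0089. The part of muscle cells in the relation over all 12 was not tested.

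Negative members were Pfkfb4, Car12 and Adm. Adm, at r = -0.711 and rho = -0.916, kept r = -0.81 without libraries 4 and 11 and gave -0.765 and -0.950 within the runs. Of the 15 positive members, 14 kept r above 0.5 without these libraries, Bnip3 being the exception at 0.497. The positive and negative members were picked with these libraries included, so these values too are no separate support. Slc2a1, Slc16a3, Hif1a, Egln3 and Car9 passed in neither direction. The list shares libraries and scaling with the members.

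**Figure D5:**
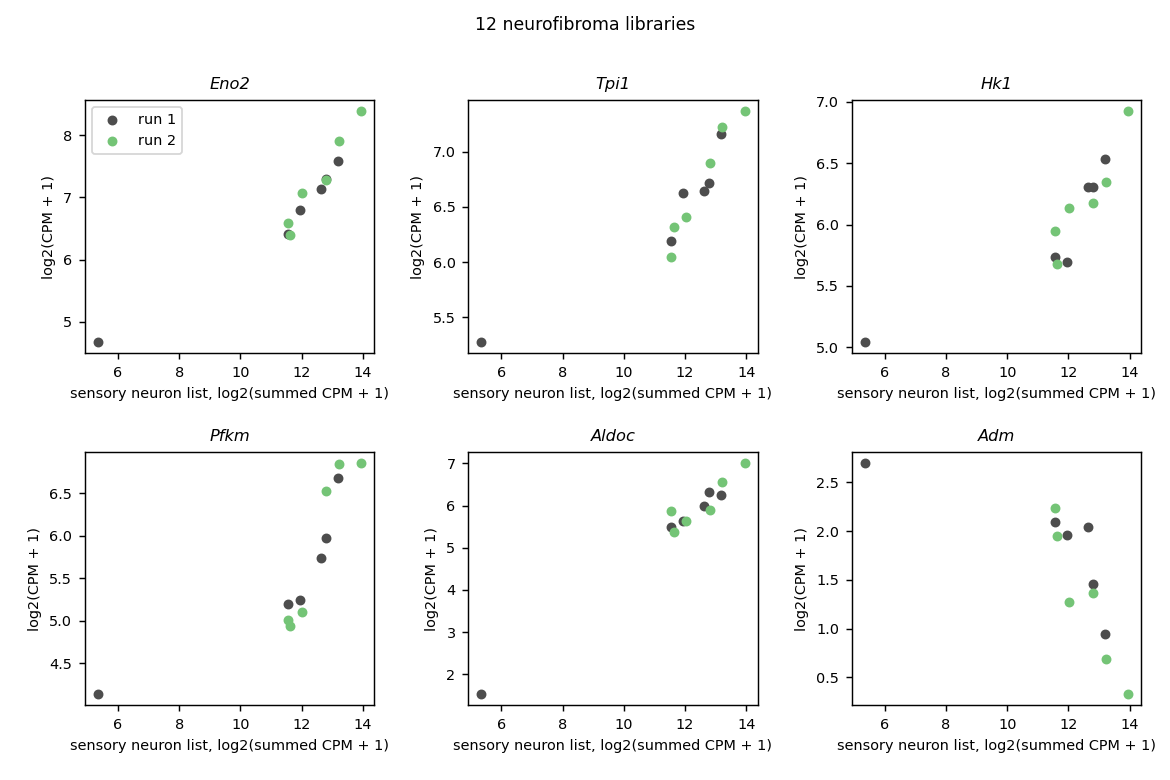
Level of 6 members as log2(CPM + 1) against the summed CPM of 20 sensory neuron genes as log2(sum + 1) in the 12 neurofibromas, with run 1 in dark grey and run 2 in green. Eno2, Tpi1, Hk1, Pfkm and Aldoc rise with the neuron sum, and Adm falls.

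Between paraspinal subgroups no member and no gene passed by edgeR at the adjusted threshold (0 percent), with 0 members and 1991 genes at an unadjusted p under 0.05. DESeq2 called 0 members, and limma-voom with sample weights called 2 higher and 1 lower. Non-overlap, at 2 against 2, covered 26 of 37 members, 14 higher and 12 lower, beside 69.6% of genes (34.6% higher, 34.9% lower). The change of greatest size was Car9 at 1.43 ± 1.37 (adjusted p = 0.755).

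Of other genes of these pathways, no larger share was called than of all genes in any of the 3 comparisons between stages. Of 36 other glycolysis genes, 31 were tested: GEM-PNST against neurofibroma had 10 higher and 9 lower, paraspinal against neurofibroma 7 and 8, and GEM-PNST against paraspinal 0 and 1. The gene lower in the last was Pdp1, a pyruvate dehydrogenase phosphatase, at -1.0 ± 0.24 (adjusted p = 0.0357). The pentose phosphate enzyme Taldo1 changed by 3.98 ± 0.41 (adjusted p = 2.1e-07) in GEM-PNST and 2.41 ± 0.23 (adjusted p = 1.1e-07) in paraspinal tumors against neurofibroma, and hexokinase Hk3 by 3.73 ± 0.61 (adjusted p = 3.63e-05) and 1.56 ± 0.49 (adjusted p = 0.0105). Pdk4, another pyruvate dehydrogenase kinase, went to -3.56 ± 0.87 (adjusted p = 0.00154) in GEM-PNST.

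Of 41 other hypoxia response genes, 40 were tested: 17 were higher and 8 lower in GEM-PNST than in neurofibroma, and 12 higher and 8 lower in paraspinal tumors. Between GEM-PNST and paraspinal tumors 2 were higher and 1 lower, 7.5% of those tested beside 10.9% of all genes. The higher ones were Stc2, a secreted glycoprotein hormone (5.36 ± 1.27, adjusted p = 0.0361), and Cited2, an inhibitor of HIF transactivation (2.75 ± 0.48, adjusted p = 0.0120). The lower one was Ndrg1, which hypoxia raises in many cells and which Schwann cells use for myelin upkeep (-2.87 ± 0.47, adjusted p = 0.00957). All 14 myelinating Schwann cell genes were also lower in GEM-PNST than in paraspinal tumors without overlap, beside 16.4% of all genes. Of the 14, 12 were called lower (85.7%), beside 7.82% of all genes. Pgf, a VEGF family ligand, and Igfbp3 were higher in GEM-PNST than in neurofibroma, by 5.19 ± 0.77 (adjusted p = 1.46e-05) and 3.73 ± 0.74 (adjusted p = 0.000254).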

How the data were processed

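The deposited table holds raw read counts per gene symbol for 20 libraries. Per the labels' protocols, total RNA (RNeasy Plus Micro) was made into Nextera XT libraries. TopHat, HISAT2, featureCounts and mm10 are named, per the submitters' processing notes, without versions or roles. Whether counting used strand is not given in the sources used here.

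Counts were scaled by TMM over all 20 libraries, filtered by filterByExpr over stages (16589 of 24062 genes) and tested with edgeR 4.0.16 (R 4.3.3, quasi-likelihood F test, Benjamini-Hochberg, threshold 0.05). The fit held only the libraries compared, or for subgroups also GEM-PNST. limma 3.58.1 and DESeq2 1.42.0 were alternatives. The fit was tested on simulated data. The list of sensory neuron genes was related to each gene by permutation of the neurofibroma libraries (Python 3.11.15, ranks from scipy 1.17.1). Nothing says that libraries of a group are separate animals, so p-values measure the spread between these samples, which may be technical. Depth per library is 9900759 to 24314222 counts.

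The members, lists and tests were chosen with earlier results of these data known. Values in every library are given for the 15 members of lowest p in GEM-PNST against paraspinal and for the member of largest change in each other comparison. Other members are given by range and count, and from the pathway lists only genes past the threshold with the largest changes, at most 4 each way, are named. Hk2, Adm and others beyond this rule were chosen after their values were seen. Protein sequences and the promoters of Slc2a3, Bnip3l and Epas1 were not used here.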

Additional observations from a re-analysis of the deposited data

Results flagged for a closer look

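Within groups of 4, the highest or lowest library was compared with its nearest neighbour for each member and ratio. By Dixon's test, 9 of 96 such groups had 1 library far from the rest. That test flags about 5 percent by chance only for independent, normally distributed values. Members were compared as CPM, which can be skewed, and they may vary together, so 5 percent is no yardstick for the 9. The share over all genes was not counted. In all 9 groups the flagged library was the highest. GEM-PNST library 2 accounted for 5: Slc2a1 at 546 CPM beside 99.1 in the next library, Slc2a3 at 152 beside 29.3, Hk1 at 216 beside 78.6, Egln3 at 208 beside 22.4, and Adm at 144 beside 14.5. GEM-PNST library 1 stood apart for Pfkp at 408 CPM beside 91.5, for Aldoc at 65.3 beside 2.98, and for the Pfkp/Pfkm log2 ratio at 2.59 beside -1.57. Pkm at 1007 CPM in paraspinal subgroup 2 library 1 stood apart from 774 in the next paraspinal tumor.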

How the results depend on the processing

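In GEM-PNST against paraspinal, where 1 member was higher and 0 lower among 1807 genes called, DESeq2 gave 7 and 3 among 4711, limma-voom with sample weights 1 and 6 among 2858, and all 20 libraries in 1 fit 10 and 5 among 6676. Either paraspinal subgroup alone gave 0 higher, among 1456 genes for subgroup 1 and 74 for subgroup 2. Leaving out 1 library gave 0 to 7 higher and 0 to 4 lower, with 526 to 2497 genes called. The 0 higher came from leaving out any paraspinal library, the 7 higher from leaving out GEM-PNST library 3, and the 4 and 3 lower from leaving out GEM-PNST libraries 1 and 2. Car9 kept its direction in every alternative run. Against neurofibroma run 1 alone, GEM-PNST had 16 members higher and 5 lower, with 10841 genes called (65.4% of all genes). Between subgroups limma-voom gave 2 higher and 1 lower among 5410 genes, DESeq2 1212 genes and all 20 libraries 1255, beside 0. Leaving out neurofibroma library 8 or 9 was an alternative chosen after seeing the data because their codes share a number. In GEM-PNST against neurofibroma it gave 16 members higher and 7 lower among 12001 genes, and 15 and 8 among 12041. In paraspinal tumors against neurofibroma it gave 14 and 9 among 9736, and 14 and 9 among 9806. The Pfkp/Pfkm log2 ratio, GEM-PNST against paraspinal, was 0.69 and ran from -0.42 without GEM-PNST library 1 to 1.16 without library 4. RLE and library totals shifted all genes by -0.16 and -0.27 in GEM-PNST and by -0.17 and 0.23 in paraspinal tumors against neurofibroma. The cause of these differences was not tested.

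The labels do not say that a replicate number marks a shared origin. Deviations of same-numbered libraries correlated at -0.07 to 0.11 between neurofibromas and GEM-PNST, where 2 of 4 pairs were over 0.1, and no other combination has more than 2 pairs. They were 0.135 and 0.202 between neurofibromas and subgroup 1, -0.270 and 0.0316 with subgroup 2, -0.0316 and 0.126 between subgroup 1 and GEM-PNST, -0.0571 and -0.0280 between subgroup 2 and GEM-PNST, and 0.156 between the subgroups. In a group of 2 the deviations mirror each other, so the values of its 2 libraries differ only in sign. Differently numbered libraries reached 0.527 (neurofibroma 9 with subgroup 1 library 1). These correlations therefore cannot settle whether the numbers mark pairs. Since the labels do not say so, the numbers were not taken as pairs. With the replicate number as a block, GEM-PNST against paraspinal had 5 members higher and 0 lower among 957 genes. GEM-PNST against neurofibroma then had 8 higher and 3 lower among 7419 genes, and paraspinal against neurofibroma 4 and 2 among 2947, beside 12156 and 9876 without the block.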
